A study of Mus musculus with 4 samples.

Results

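The 10 genes described here are those of the Hippo pathway and its nuclear effectors: the kinases Lats1 and Lats2, the coactivators Yap1 and Wwtr1, the DNA-binding factors Tead1 to Tead4, and Amotl2 and Ankrd1, both known as YAP targets. They were taken by symbol from the deposited RNA sequencing table, in which all 10 were found once each among 48432 gene identifiers. BORG-expressing cells (2 libraries) were compared with parental cells (2 libraries). Both groups are D2.OR, a mouse mammary line labelled as pre-malignant hyperplastic alveolar cells and known for lying dormant in distant organs, and both were kept for 7 days in 3D culture with Cultrex, a basement membrane extract. BORG is a long non-coding RNA, and none of the identifiers carries its symbol, so its own level was not analysed here. The table itself names the parental condition Empty, and the labels give neither a vector nor the number of clones, so that an effect of carrying a vector cannot be told apart from that of BORG.

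In the Hippo pathway, a kinase cascade ends in LATS1 and LATS2, which phosphorylate YAP (gene Yap1) and its paralog TAZ (gene Wwtr1) and so keep them out of the nucleus. YAP and TAZ do not bind DNA by themselves. They act through the TEAD proteins, which recognise a short DNA motif, and their output is often read from target genes such as Ankrd1, Amotl2 and Lats2, the last of which is part of a negative feedback. The pathway is regulated largely by phosphorylation, so transcript levels show how much of each component's RNA is present and not how active the component is.

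The BORG-expressing libraries held 7900767 and 27131662 fragments assigned to genes, and the parental libraries 24176438 and 30322679. Replicates correlated across genes with r = 0.973 (BORG-expressing) and 0.982 (parental), where genes are not independent. Epithelial keratin genes were abundant (Krt8 from 261 to 439 FPKM, Krt18 from 388 to 712 FPKM), but Epcam reached 1.29 FPKM at most and Krt5 0.0596 FPKM, while the fibroblast marker Pdgfra lay between 58.2 and 94.3 FPKM. Of the 8 epithelial markers listed, 6 were tested, 4 of them higher and 1 lower in BORG-expressing cells, and their summed level was 1496 and 967 FPKM in BORG-expressing libraries against 1150 and 1075 FPKM in parental ones. The 6 fibroblast markers summed to 98.2 and 80.2 FPKM against 108 and 113 FPKM, with 2 of 4 tested members lower and none higher. The blood and immune markers summed to 10.9 and 8.23 FPKM against 4.84 and 5.68 FPKM, nearly all from Cd68, and the 4 endothelial markers to 0.638 and 0.563 FPKM against 1.40 and 1.60 FPKM. The part of these marker differences in the results below was not tested.

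The TEAD genes changed in opposite directions while the coactivators they bind did not pass the test. Tead2 rose in BORG-expressing cells to 3.11 times its parental level, Tead4 fell to 54.5% and Tead1 to 60.8%. The targets Ankrd1 and Amotl2 fell to 43.3% and 61.9%. Yap1, Wwtr1, Tead3, Lats1 and Lats2 did not pass the threshold of 0.05 on the adjusted p (edgeR quasi-likelihood F test, two-sided, Benjamini-Hochberg over all 15116 genes tested). In bulk RNA, fewer cells that express a gene and less RNA per cell cannot be told apart. All 10 genes passed the filter on low counts. Of them 1 rose and 4 fell, against a background of 41.1% of all genes tested that passed, 19.9% higher and 21.3% lower, so 5 of 10 is near the share called among all genes. The median log2 fold change was -0.26 for the 10 genes and 0.02 for all genes tested.

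**Figure D1:**
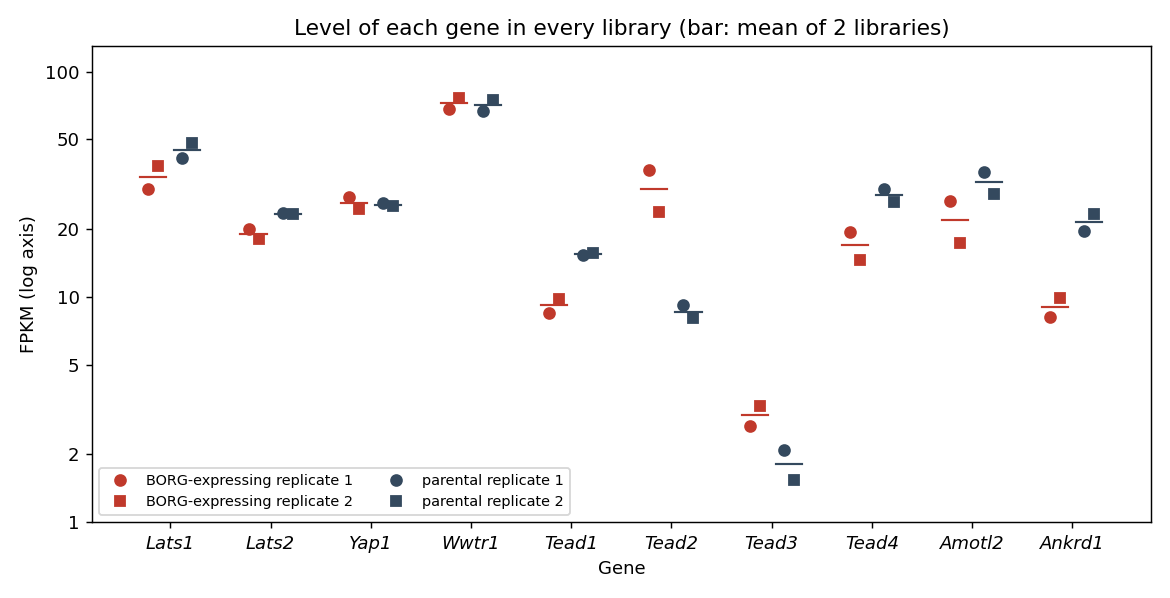
Level of each gene (FPKM, fragments scaled by transcript length and library size, log axis) in the 2 BORG-expressing and 2 parental libraries; points are libraries and short bars are means of 2. The Tead2 points of BORG-expressing cells lie above and those of Tead1, Tead4 and Ankrd1 below their parental points, while Yap1 and Wwtr1 points overlap between the groups.

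Tead2, a TEAD gene best known from early mouse embryos and the developing neural tube, stood at 36.7 and 23.8 FPKM in BORG-expressing libraries, against 9.18 and 8.03 FPKM in parental libraries. Both BORG-expressing libraries were above both parental ones. As CPM, fragment counts scaled for library size alone with TMM factors, its level was 73.9 and 82.0 CPM against 25.8 and 24.5 CPM. The log2 fold change was 1.64 ± 0.12 (SE, edgeR adjusted p = 2.34e-04), with a fold of 3.11 and a 95% interval of 2.56 to 3.77. It was larger in size than the change of 89.5% of the genes tested. Tead2 lies on chromosome 7 at 45215753 to 45233644 (plus strand, GRCm38) and overlaps Cd37, a leukocyte gene on the opposite strand, which had at most 0.252 CPM in any library.

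Tead4, which is needed for trophectoderm formation in the mouse embryo, stood at 19.3 and 14.6 FPKM in BORG-expressing libraries, against 30.2 and 26.5 FPKM in parental libraries. Its log2 fold change was -0.88 ± 0.12 (edgeR adjusted p = 0.00197). Tead1, a broadly expressed member first described as TEF-1, stood at 8.52 and 9.81 FPKM against 15.3 and 15.6 FPKM and fell by 0.72 ± 0.11 (edgeR adjusted p = 0.00406). For both genes the groups did not overlap. Tead4 lies on chromosome 6 at 128224288 to 128300823 (minus strand) and Tead1 on chromosome 7 at 112679318 to 112906807 (plus strand), so Tead1 and Tead2 share a chromosome but lie far apart on it.

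Tead3, the least abundant member, stood at 2.68 and 3.29 FPKM in BORG-expressing libraries, against 2.09 and 1.54 FPKM in parental libraries. Its counts were few: 44 and 351 fragments, against 159 and 157. As CPM the BORG-expressing libraries disagreed with each other, at 5.56 (exact Poisson 95% interval 4.04 to 7.46) and 12.8 (11.5 to 14.2) CPM, and the lower of them lay within the parental values of 6.68 and 5.18 CPM. These intervals cover counting error only. The log2 fold change was 0.68 ± 0.38 (edgeR adjusted p = 0.200). Without BORG-expressing replicate 1 it was 1.10 (adjusted p = 0.00740) and without BORG-expressing replicate 2 it was -0.09 (adjusted p = 0.848), so 1 library decides the value. With no filter on low counts the adjusted p was 0.0480. FPKM and CPM rank the 2 BORG-expressing libraries alike but differ in the size of the gap.

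The makeup of TEAD transcripts therefore differed between the groups, while their sum in FPKM was not separated. In CPM, which is not scaled for length, their sum was lower in both BORG-expressing libraries than in both parental ones. The 4 genes summed to 67.2 and 51.5 FPKM in BORG-expressing libraries, against 56.9 and 51.7 FPKM in parental libraries, and the groups overlapped. Tead2 held 54.6% and 46.2% of that sum in BORG-expressing libraries, against 16.1% and 15.5% in parental ones. Tead4 held 28.7% and 28.4% against 53.2% and 51.3%, and Tead1 held 12.7% and 19.0% against 27.0% and 30.2%. Tead3 held 3.99% and 6.38% against 3.67% and 2.99%. The most abundant TEAD transcript per length was thus Tead2 in both BORG-expressing libraries and Tead4 in both parental ones. By fragments, which are not scaled for length, Tead1 had the most in every library. The ratio of Tead2 to Tead4 was 1.90 and 1.63 in BORG-expressing libraries against 0.304 and 0.303 in parental libraries. With 2 libraries a group, the smallest p an exact two-sided permutation test can give is 0.333, which each of the 4 shares reached, so these shares are descriptions. Counted in fragments in place of FPKM, the Tead2 share differed by 25.6 percentage points, against 34.6 in FPKM, and the Tead4 share by -12.8 against -23.7. For Tead2 and Tead4, FPKM was higher in BORG-expressing replicate 1, but CPM was higher in BORG-expressing replicate 2 (Tead4: 48.4 and 54.2 CPM). The cause of this difference in order was not tested.

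**Figure D2:**
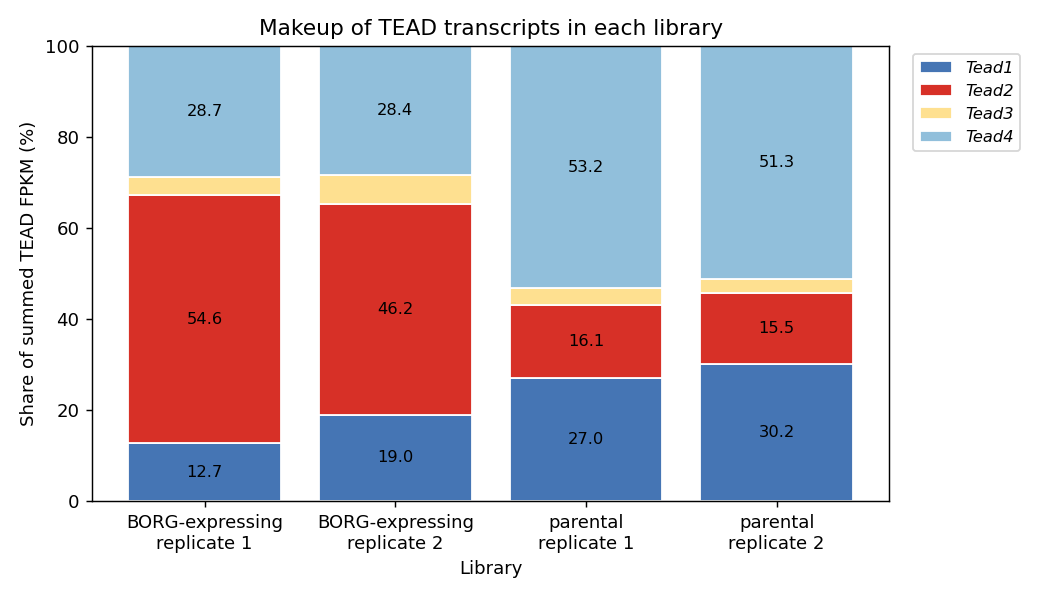
Share of each TEAD gene in the summed FPKM of Tead1 to Tead4 (percent) in each library. The Tead2 segment takes 54.6% and 46.2% in the BORG-expressing libraries and 16.1% and 15.5% in the parental ones.

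The coactivators were abundant in both groups. Yap1 stood at 27.7 and 24.5 FPKM in BORG-expressing libraries, against 26.0 and 25.3 FPKM in parental libraries, with the parental values inside the BORG-expressing range. Its fold was 1.05 with a 95% interval of 0.886 to 1.26 (edgeR adjusted p = 0.593). Wwtr1, which encodes TAZ, was the most abundant of the 10 genes in both groups, at 68.5 and 76.7 FPKM against 67.0 and 75.2 FPKM. Its fold was 1.11 with an interval of 0.948 to 1.31 (edgeR adjusted p = 0.240). Neither test shows that the levels are equal. The ratio of Wwtr1 to Yap1 per length was 2.47 and 3.14 in BORG-expressing libraries against 2.58 and 2.97 in parental libraries, so the groups overlapped (exact permutation p = 1.00). Yap1 lies on chromosome 9 at 7931999 to 8004596 (minus strand) and Wwtr1 on chromosome 3 at 57455649 to 57575910 (minus strand).

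The LATS kinases had values on the lower side in BORG-expressing cells without passing the threshold. Lats1 stood at 30.0 and 38.1 FPKM in BORG-expressing libraries, against 41.2 and 48.4 FPKM in parental libraries, with a fold of 0.846 and a 95% interval of 0.718 to 0.997 (edgeR adjusted p = 0.0940). Lats2, a kinase gene that is also a YAP target, stood at 20.1 and 18.1 FPKM against 23.6 and 23.3 FPKM, with a fold of 0.819 and an interval of 0.688 to 0.976 (edgeR adjusted p = 0.0688). In neither gene did the groups overlap. Lats1 was the more abundant per length in every library: the ratio of Lats2 to Lats1 was 0.670 and 0.474 in BORG-expressing libraries against 0.572 and 0.482 in parental libraries (exact permutation p = 1.00). Lats2 shares 39.9% of the distinct 100-base words of its annotated transcripts with the predicted gene Gm49361 on its own strand, which the table does not list, so its counts are uncertain. Lats1 lies on chromosome 10 at 7681214 to 7716460 (plus strand) and Lats2 on chromosome 14 at 57689662 to 57758388 (minus strand).

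**Figure D3:**
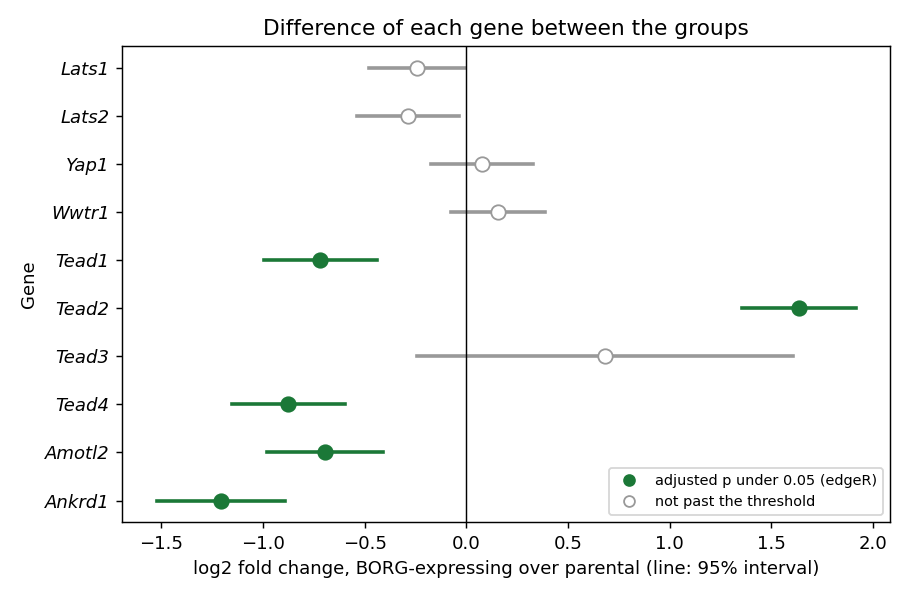
Log2 fold change of each gene, BORG-expressing over parental, with its 95% interval from edgeR (n = 2 libraries a group). Filled points passed an adjusted p of 0.05: Tead2 at 1.64 on the right, and Tead1, Tead4, Amotl2 and Ankrd1 between -0.69 and -1.21 on the left.

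Of the YAP targets among the 10 genes, Ankrd1 and Amotl2 fell, and Lats2, described above, did not pass. Ankrd1, which encodes an ankyrin repeat protein of the nucleus and the muscle sarcomere and is a widely used YAP target, stood at 8.11 and 9.89 FPKM in BORG-expressing libraries, against 19.7 and 23.4 FPKM in parental libraries. Its log2 fold change was -1.21 ± 0.13 (edgeR adjusted p = 9.6e-04). Amotl2, an angiomotin family gene whose protein binds YAP and restrains it, stood at 26.6 and 17.3 FPKM against 35.9 and 28.6 FPKM. Scaled for library size it was 102 and 113 CPM against 185 and 163 CPM, and it fell by 0.69 ± 0.12 (edgeR adjusted p = 0.00518). For both genes both BORG-expressing libraries lay below both parental ones. The Amotl2 call was lost in limma on log2(FPKM + 1), where its log2 fold change was -0.56 (adjusted p = 0.158, or 0.301 with no filter), and on log2(FPKM + 0.1), where it was -0.58 (adjusted p = 0.147). Ankrd1 lies on chromosome 19 at 36111961 to 36120099 (minus strand) and Amotl2 on chromosome 9 at 102716672 to 102733418 (plus strand). Neither overlaps another annotated gene.

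TEAD proteins recognise the letters GGAATG, which read CATTCC on the other strand. These were searched on both strands of RefSeq promoter windows (GRCm38.p6) from 250 bases before to 50 bases after each start site. Windows were found for 8 of the 10 genes, 12 windows in all, of which 8 from 6 genes held the letters; windows of Wwtr1 and of Tead3 overlap each other, so these are not independent. Of all 32851 promoter windows 14.7% held them. The 6 genes with a match include Yap1, Wwtr1, Lats2 and Tead3, none of which passed the test, as well as Ankrd1 and Amotl2, and the genes with none are Lats1 and Tead2. Of 13 windows of the target list described below, 4 held the letters. Among listed targets that fell, the windows of Ccn1 and Crim1 held them and that of Gadd45a did not. Ccn1 passed only narrowly (edgeR adjusted p = 0.0481), and Crim1 had a log2 fold change of -0.50 ± 0.12 (adjusted p = 0.0174). The windows of Tgfb2 and Foxf2, which rose, did not hold them. For Foxf2 the log2 fold change was 0.74 ± 0.19 (edgeR adjusted p = 0.0208). Of listed targets that did not pass, Axl and Ptpn14 held them, and F3, Myof and Nt5e did not. The Ankrd1 window holds 2 matches, 210 and 123 bases before the start site. The Amotl2 window holds 1, which begins 65 bases before it on the other strand. The Tead2 window holds none in this stretch. These windows are shown because their genes changed, not because of their matches, with the letters searched for in capitals. A match is a description and not a bound site, and these files hold no data on binding. The windows are chr19:36119795-36120094 (minus strand), chr9:102717554-102717853 (plus strand) and chr7:45215542-45215841 (plus strand).
Ankrd1: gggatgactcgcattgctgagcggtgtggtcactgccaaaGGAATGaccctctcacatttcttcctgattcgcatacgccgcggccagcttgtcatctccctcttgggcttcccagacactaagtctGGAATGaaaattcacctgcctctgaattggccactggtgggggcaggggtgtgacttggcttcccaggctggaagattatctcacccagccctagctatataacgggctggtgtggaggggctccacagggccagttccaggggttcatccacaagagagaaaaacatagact
Amotl2: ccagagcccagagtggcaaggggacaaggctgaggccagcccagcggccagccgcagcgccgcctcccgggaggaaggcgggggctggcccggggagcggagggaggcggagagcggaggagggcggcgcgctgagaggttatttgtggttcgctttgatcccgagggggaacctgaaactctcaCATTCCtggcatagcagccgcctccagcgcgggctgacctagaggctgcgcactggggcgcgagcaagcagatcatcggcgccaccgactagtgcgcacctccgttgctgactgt
Tead2: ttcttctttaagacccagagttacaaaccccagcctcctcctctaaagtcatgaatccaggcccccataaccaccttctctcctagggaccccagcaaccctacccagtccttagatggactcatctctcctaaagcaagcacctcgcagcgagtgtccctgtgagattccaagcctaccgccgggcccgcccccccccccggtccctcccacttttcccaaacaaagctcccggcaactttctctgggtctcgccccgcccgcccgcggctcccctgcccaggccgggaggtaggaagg

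The order of the 10 genes by level per length shifted with these changes. In BORG-expressing cells Wwtr1 ranked 1 (72.6 ± 5.80 FPKM, SD, n = 2) and Lats1 ranked 2 (34.0 ± 5.71 FPKM). Lats1, Tead2, Yap1, Amotl2, Lats2 and Tead4 followed each other with overlapping neighbours, and Tead1 and Ankrd1 overlapped as well. In parental cells Wwtr1 (71.1 ± 5.79 FPKM) and Lats1 (44.8 ± 5.08 FPKM) held the same places, and the neighbours that overlapped were Amotl2 with Tead4 and Lats2 with Ankrd1. Tead2 ranked 3 in BORG-expressing cells (30.3 ± 9.11 FPKM) and 9 in parental cells (8.61 ± 0.813 FPKM). Tead3 ranked 10 in both, at 2.99 ± 0.426 FPKM and 1.82 ± 0.385 FPKM.

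Over the 4 libraries, the genes whose centred log2 CPM lay nearest to that of Tead2 were Mgat3, Fzd7 and Nav1, with Euclidean distances of 0.0440, 0.0549 and 0.0652 log2 units. Mgat3 is a glycosyltransferase gene, Fzd7 a WNT receptor gene and Nav1 a neuron navigator gene. Their levels were 76.8 and 85.9 CPM in BORG-expressing libraries against 26.1 and 24.9 CPM in parental libraries for Mgat3, 108 and 116 CPM against 38.5 and 36.3 CPM for Fzd7, and 193 and 206 CPM against 68.0 and 61.3 CPM for Nav1. With 4 libraries in 2 groups, the likeness rests on the size of the rise and the closeness of the replicates.

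Genes around the 10 were read from 5 lists, 73 genes in all, of which 66 were tested, 17 were higher and 15 were lower (48.5% called, against 41.1% of all genes). Without parental replicate 2 fewer of them were lower. Each fit that left out 1 library also called fewer of all genes, against which such counts below are to be read. The first list holds the kinases and scaffolds that activate LATS. Of its 19 tested genes 5 rose and 3 fell, with a median log2 fold change of -0.13. Map4k2, a kinase able to phosphorylate LATS, stood at 31.9 and 32.6 CPM in BORG-expressing libraries against 8.83 and 9.74 CPM in parental libraries and rose by 1.80 ± 0.14 (edgeR adjusted p = 3.42e-04). Its relative Mink1 (162 and 178 against 90.1 and 73.8 CPM), the kinase Taok2 (52.4 and 64.1 against 30.0 and 28.2 CPM) and the scaffold Sav1 (70.3 and 70.5 against 41.9 and 44.4 CPM) rose by 1.05, 1.01 and 0.71. The kinase gene Tnik also rose (0.97 ± 0.28, edgeR adjusted p = 0.0350). The 3 that fell were Map4k5 (-0.47 ± 0.13, adjusted p = 0.0308), Wwc1 (-0.47 ± 0.13, adjusted p = 0.0309) and Mob1a (-0.42 ± 0.12, adjusted p = 0.0336). Among relatives of Map4k2, Map4k3 (-0.19 ± 0.12), Map4k4 (-0.18 ± 0.10) and Map4k1 (1.04 ± 0.68, at most 0.758 CPM) did not pass. Nor did Taok1 (0.31 ± 0.15) and Taok3 (-0.15 ± 0.13). The MST kinase genes at the head of the cascade did not pass, with a log2 fold change of 0.20 ± 0.14 for Stk3 and -0.16 ± 0.13 for Stk4, nor did Nf2, which encodes merlin (fold 0.999, 95% interval 0.842 to 1.19). The number that fell was 0 without parental replicate 2 and 1 without BORG-expressing replicate 2, and limma on FPKM gave Sav1 an adjusted p of 0.0940 to 0.195. With no filter, limma also lost Mink1 (0.0761) and Taok2 (0.0740).

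Of 12 tested genes of the STRIPAK phosphatase complex and the Ajuba family, which hold the kinases in check, 2 rose and 2 fell, with a median of 0.04. Ajuba, a LIM protein that binds LATS at junctions, had 55.2 and 66.4 CPM in BORG-expressing libraries against 188 and 166 CPM in parental libraries and fell by 1.54 ± 0.14 (edgeR adjusted p = 4.92e-04), while its paralog Wtip rose by 1.08 ± 0.24 (adjusted p = 0.0145). The STRIPAK scaffold Slmap had 207 and 195 CPM against 151 and 160 CPM (log2 fold change 0.37 ± 0.10, adjusted p = 0.0296), and the striatin gene Strn3 had 214 and 165 CPM against 256 and 298 CPM (-0.55 ± 0.15, adjusted p = 0.0306). Both calls were fragile: Slmap was lost without BORG-expressing replicate 1 (adjusted p = 0.107), parental replicate 1 (0.334) or parental replicate 2 (0.155), and Strn3 without BORG-expressing replicate 2 (0.0677) or parental replicate 2 (0.103). With limma on FPKM, Wtip lost its call (0.0730 to 0.190).

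Among 6 tested genes of the angiomotins, the YAP-binding phosphatase Ptpn14 and the atypical cadherins, 3 rose and 2 fell, with a median of 0.26. The share called was 83.3%, against 41.1% of all genes, in a short list. Fat3, Dchs1 and Dchs2 had too few fragments to be tested. Unlike Amotl2, its paralogs rose: Amot had 49.7 and 38.8 CPM in BORG-expressing libraries against 23.0 and 23.9 CPM in parental libraries (0.90 ± 0.15, edgeR adjusted p = 0.00516), and Amotl1 had 629 and 550 CPM against 442 and 442 CPM (0.41 ± 0.10, adjusted p = 0.0213). The Amotl1 call was lost without BORG-expressing replicate 1 (0.0809), parental replicate 1 (0.206) or parental replicate 2 (0.155), and with limma on FPKM (0.178 to 0.292). The Amot call was lost with limma on log2(FPKM + 1) (0.0502, or 0.105 with no filter). The large cadherin gene Fat4 had 114 and 111 CPM against 38.4 and 33.9 CPM and rose by 1.64 ± 0.11 (adjusted p = 2.28e-04), and Fat2 had 1.64 and 2.33 CPM against 9.04 and 8.91 CPM and fell by 2.11 ± 0.26 (adjusted p = 0.0015). Fat1 fell too (-0.34 ± 0.10, edgeR adjusted p = 0.0419). With limma and no filter Fat2 did not pass (0.165). In this list 1 gene fell in each fit that left out 1 library.

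Of 13 tested partners of YAP, TAZ and TEAD, 3 rose and 3 fell, with a median of 0.09. Vgll3, a cofactor that binds TEAD in place of YAP, had 3.28 and 2.59 CPM in BORG-expressing libraries against 7.52 and 9.31 CPM in parental libraries and fell by 1.55 ± 0.26 (edgeR adjusted p = 0.00455). Its relative Vgll4 went the other way, at 53.2 and 49.0 CPM against 37.7 and 38.4 CPM (0.42 ± 0.11, edgeR adjusted p = 0.0250). The 14-3-3 gene Ywhag, of the family that retains phosphorylated YAP in the cytoplasm, had 385 and 425 CPM against 1049 and 987 CPM and fell by 1.33 ± 0.10 (adjusted p = 2.74e-04). Of the same family, Ywhab also fell (-0.63 ± 0.11, edgeR adjusted p = 0.00641). Ywhae (0.26 ± 0.09), Ywhah (0.16 ± 0.15), Ywhaq (0.09 ± 0.10), Ywhaz (-0.24 ± 0.16) and Sfn (0.54 ± 0.38) did not pass. Btrc, a ubiquitin ligase subunit that acts on phosphorylated YAP, and Csnk1d, a kinase of the same step, rose by 0.90 ± 0.14 (adjusted p = 0.00331) and 0.68 ± 0.10 (adjusted p = 0.0025). Their paralogs Fbxw11 (-0.12 ± 0.10, edgeR adjusted p = 0.378) and Csnk1e (-0.04 ± 0.12, edgeR adjusted p = 0.843) did not pass. With limma on log2(FPKM + 1), Csnk1d lost its call (adjusted p = 0.0541, or 0.130 with no filter), and Vgll3 did so with no filter (0.0638).

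The remaining list holds 19 genes of a published YAP/TAZ target set other than Amotl2, Ankrd1 and Lats2. Of its 17 tested genes 4 rose and 5 fell, with a median of 0.11, so the fall of Ankrd1 and Amotl2 was not shared by the list. Those with the smallest p went both ways. Gadd45a, a growth arrest gene, fell by 3.05 ± 0.14 (edgeR adjusted p = 8.22e-05) and Fjx1, a homolog of the fly kinase four-jointed, by 3.40 ± 0.35 (0.505 and 0.474 CPM in BORG-expressing libraries against 5.55 and 4.79 CPM in parental libraries, adjusted p = 7.96e-04), while the growth factor gene Tgfb2 rose by 1.88 ± 0.14 (adjusted p = 2.74e-04) and the RhoGEF gene Arhgef17 by 0.96 ± 0.12 (220 and 250 CPM against 129 and 113 CPM, adjusted p = 0.00172). The classical targets were not alike in level: Ccn1 had 97.1 and 105 CPM in BORG-expressing libraries against 136 and 122 CPM in parental libraries (-0.36 ± 0.11, adjusted p = 0.0481), whereas Ccn2 stayed at or under 1.28 CPM in each library (0.37 ± 0.47, adjusted p = 0.571). Axl (-0.23 ± 0.09, adjusted p = 0.0741), Myof (0.27 ± 0.10, adjusted p = 0.0793) and Nt5e (-0.14 ± 0.11, adjusted p = 0.320) did not pass. The number that fell was 3 without BORG-expressing replicate 1, parental replicate 1 or parental replicate 2.

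**Figure D4:**
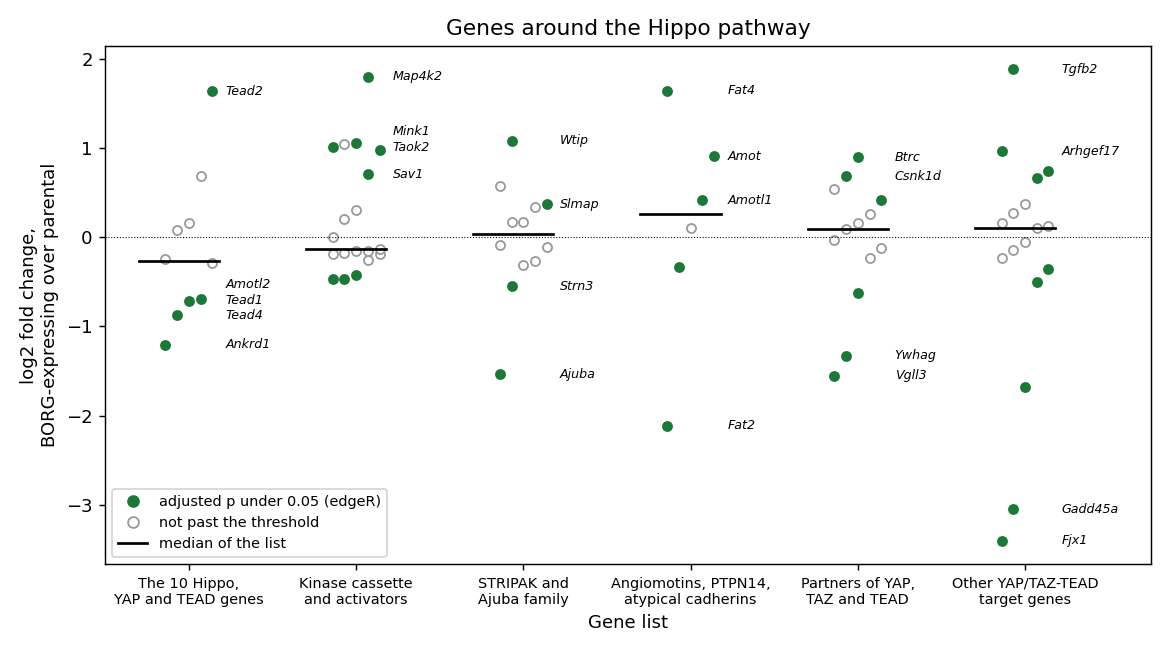
Log2 fold change, BORG-expressing over parental, of every tested gene of the 10 and of the 5 lists around them; filled points passed an adjusted p of 0.05 in edgeR and black bars are list medians. Filled points lie on both sides of 0 in each list, and the medians lie between -0.26 and 0.26.

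Across 15 other settings per gene, Tead2 and Ankrd1 kept their direction and their call in each. Tead2 ranged from 1.56 to 1.77 and Ankrd1 from -1.32 to -1.14 on the log2 scale over the settings planned. Tead1 (-0.81 to -0.64) and Tead4 (-0.96 to -0.72) lost their call in a single setting, limma on log2(FPKM + 1) with no filter on low values.

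**Figure D5:**
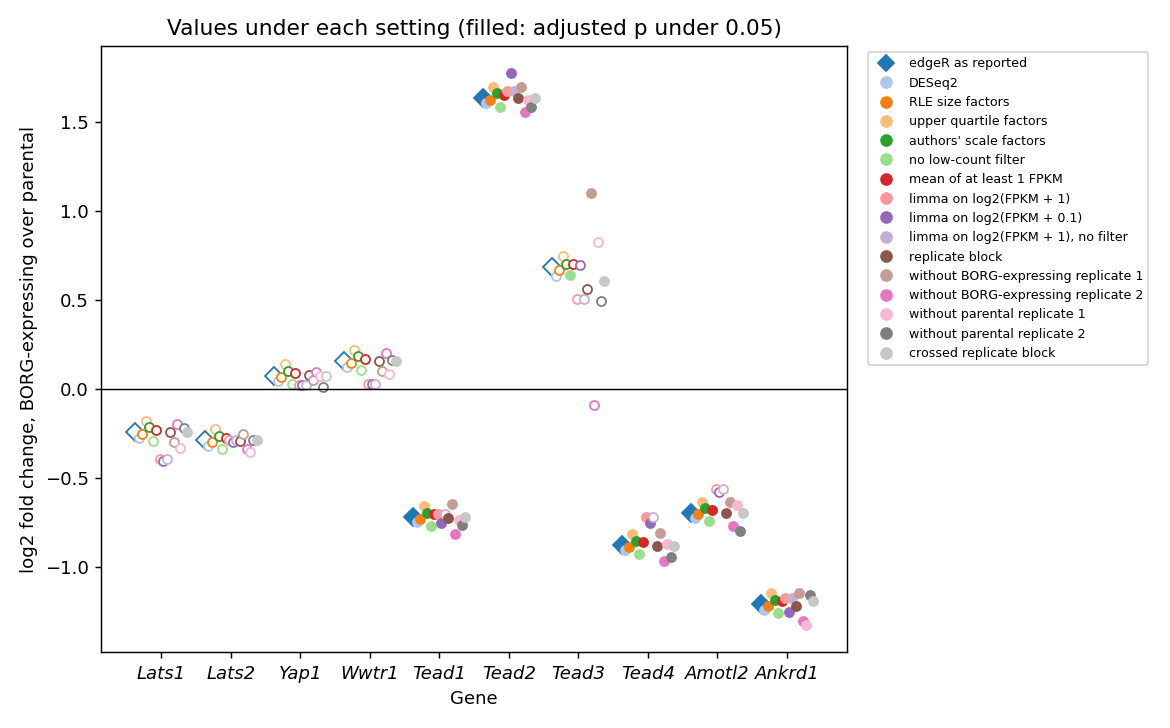
Log2 fold change, BORG-expressing over parental, of each of the 10 genes under the reported fit (diamonds) and 15 other settings (circles); filled marks passed an adjusted p of 0.05. Tead2 stays above and Tead1, Tead4, Amotl2 and Ankrd1 below 0 in each setting, and Tead3 runs from -0.09 to 1.10.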

How the data were processed

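Total RNA of 4 D2.OR libraries (2 BORG-expressing, 2 parental) was sequenced, per the labels from a stranded total RNA kit. The authors deposited, per the file headers, estimated counts of fragments, scaled fragments (a signal: the counts times 1 factor per library) and FPKM for each gene and library. FastQC, Trim Galore, TopHat and Cufflinks are named in the submitters' processing notes. The builds GRCm38, mm10 and mm8 are named with no role. Strandedness of counting and the release of the annotation: not given in the sources used here, hence antisense partners may not be separated. The table's replicates 0 and 1 were read as 1 and 2 and its condition Empty as parental. The labels do not say whether duplicates came from separate cultures, and p-values cover only the spread among the 4 libraries, which may be technical.

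Counts were rounded (4.26% of values above 0 were not whole) and entered edgeR 4.0.16 under R 4.3.3 (filterByExpr, TMM, quasi-likelihood F test). The fit was also run on counts simulated with few changed genes and the same spread for all genes. That setting differs from these data, so it cannot check the error rate here. SE is the log2 fold change over the square root of F. Alternatives used DESeq2 1.42.0, limma 3.58.1 on log2(FPKM + 1 or 0.1) of genes with a mean of at least 0.5 FPKM, other scalings and filters, and left-out libraries. Symbols and positions come from GENCODE M21 (48051 of 48432 identifiers matched). The members and lists were chosen with earlier results of these data known. From each list the 4 called genes with the smallest p were named. Nf2, Stk3, Stk4, Ccn1, Ccn2, Axl, Myof, Nt5e, Ptpn14, Crim1, Foxf2, F3, Vgll4, Fbxw11 and Csnk1e were named after their values were seen. So were Tnik, Map4k1, Map4k3, Map4k4, Map4k5, Wwc1, Mob1a, Taok1, Taok3, Fat1, Ywhab, Ywhae, Ywhah, Ywhaq, Ywhaz and Sfn. The 3 genes nearest to the member with the smallest p left out predicted genes and pseudogenes.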

Additional observations from a re-analysis of the deposited data

How the results depend on the processing

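Of 150 values of the 10 genes under 15 settings, 138 kept their direction and their side of the threshold, 5 lost the call, 6 gained it and 1 changed sign. Of 296 values of the 20 named pathway genes, 258 kept both, 38 lost the call and 0 changed sign. The cause of these changes was not tested. Against 6220 of 15116 genes called by edgeR, limma called 3189 of 14122 on log2(FPKM + 1), 3310 of 14122 on log2(FPKM + 0.1) and 1425 of 24860 with no filter; in the same order the listed pathway genes higher were 7, 10 and 3, and lower 6, 7 and 3, against 17 and 15. Of the 10 genes, 2 were higher with no filter on low counts, and 1 was lower in limma with no filter. Leaving out each library in turn gave 1 to 2 of the 10 genes higher, 8 to 11 listed pathway genes lower, and a Tead3 log2 fold change of -0.091 to 1.10. In fragments the Tead2 and Tead4 shares differed by 25.6 and -12.8 percentage points.

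Libraries share replicate numbers only; deviations of same-numbered libraries correlated at -0.44. With the replicate block 4190 genes passed in all, with 1 of the 10 genes higher and 4 lower, and 13 listed pathway genes higher and 7 lower. With crossed pairs as the replicate block, chosen after seeing the data, 9319 passed, with 3 of the 10 genes higher and 6 lower, and 22 listed pathway genes higher and 24 lower.

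Tead3, Fjx1, Fat2, Vgll3, Ccn2, Tnik and Sfn rest on few fragments, most of all in BORG-expressing replicate 1, the shallowest library.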
